A study of Drosophila melanogaster with 12 samples.

Results

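The genes described here are the CR-named genes of the list of alternatively spliced genes (the AS list) that the authors deposited with a computer-simulated RNA sequencing study of Drosophila melanogaster. They were chosen by symbol alone: every gene of that list whose symbol is CR followed by digits. The rule found 119 of the 2000 AS-list genes, and it used no measured value. Both deposited lists together hold 16595 genes, of which 2000 carry a CR symbol. The other 1881 CR-named genes are on the list of genes called not alternatively spliced (the non-AS list). The AS list therefore holds 5.95% of the CR-named genes and 12.9% of the other genes (1881 of 14595).

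The libraries model S2 cells, an embryonic fly line with hemocyte-like properties, in which the splicing factor PSI is depleted by siRNA, and control cells of the same line given a siRNA without a target. The 12 libraries comprise 3 controls and 3 knockdowns for every level of simulated splicing change, which the labels give as 60%, 40% and 20%. The controls are shared by the 3 levels, so the levels are not independent comparisons. The question the tables address is how well splicing programs find the AS-list genes. The authors deposited a table of gene scores per level for each of 6 programs (MAJIQ, Whippet, JUM, rMATS, MISO and Cufflinks), 18 tables in all. A score draws on 6 libraries at once, 3 per condition. There is therefore no spread between replicates to set a difference against, the depth is unknown, and no difference below was tested. The tables hold no expression levels, so neither the loss of PSI nor the S2 markers could be read from them.

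FlyBase gives CR numbers to genes whose transcripts are not thought to encode a protein: long noncoding RNAs, RNAs transcribed antisense to another gene, small RNA hosts and pseudogenes. Such RNAs are capped, spliced and polyadenylated by the same machinery as messenger RNAs, and many have few introns and low levels. An antisense RNA shares its genomic span with a gene on the opposite strand, and reads from the 2 can be told apart only where a library or a program keeps the strand. The labels do not say whether strand was kept.

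The BDGP6.54 annotation (Ensembl release 115) held 118 of the 119 genes; it is not the dm3 build named in the submitters' processing notes. That annotation classes 59 of them as long noncoding RNAs (lncRNA), 57 as antisense RNAs (asRNA), 1 as a pseudogene (CR43309) and 1, CR17567, as a protein-coding gene now named CG46059. CR42745 had no match. Antisense RNAs make up 47.9% of the CR-named AS-list genes and 15.8% of the CR-named non-AS-list genes.

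Few of these genes were recovered, and many had no score from any program. As scored in the authors' deposited tables, 19 of the 119 genes (16%) passed a set threshold in 1 or more tables, here named "called". The threshold was a score of 0.95 for JUM, MAJIQ, rMATS, Whippet and Cufflinks, and a Bayes factor of 10 for MISO. A further 21 genes (17.6%) had a row from 1 or more of the programs other than Cufflinks and were never called, and 23 (19.3%) had rows from Cufflinks alone. The remaining 56 genes (47.1%) had a row in no table at all. Among the other 1881 AS-list genes, 20 (1.06%) had a row in no table. Their share called over all tables together was not counted, so the 16% has no direct counterpart, and shares per level follow.

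At the 60% level 18 of the 119 genes (15.1%) were called by 1 or more programs, beside 48.8% of the other AS-list genes. The count was 15 (12.6%) for the 40% level, beside 46.1%, and 11 (9.24%) for the 20% level, beside 40.4%. At each level the share of CR-named genes lay far below that of the other AS-list genes. Rows from 1 or more programs other than Cufflinks existed for 31.1%, 31.1% and 33.6% of the CR-named genes, beside 80.6%, 81.3% and 81.1%. Of the genes with such rows, 48.6%, 37.8% and 27.5% were called by those programs, beside 59.6%, 56.5% and 49.8%. CR-named genes of the non-AS list were called in 11, 10 and 7 of 1881 cases at the 60%, 40% and 20% levels. The shares among the other non-AS-list genes were 1.93%, 1.68% and 1.25%.

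**Figure D1:**
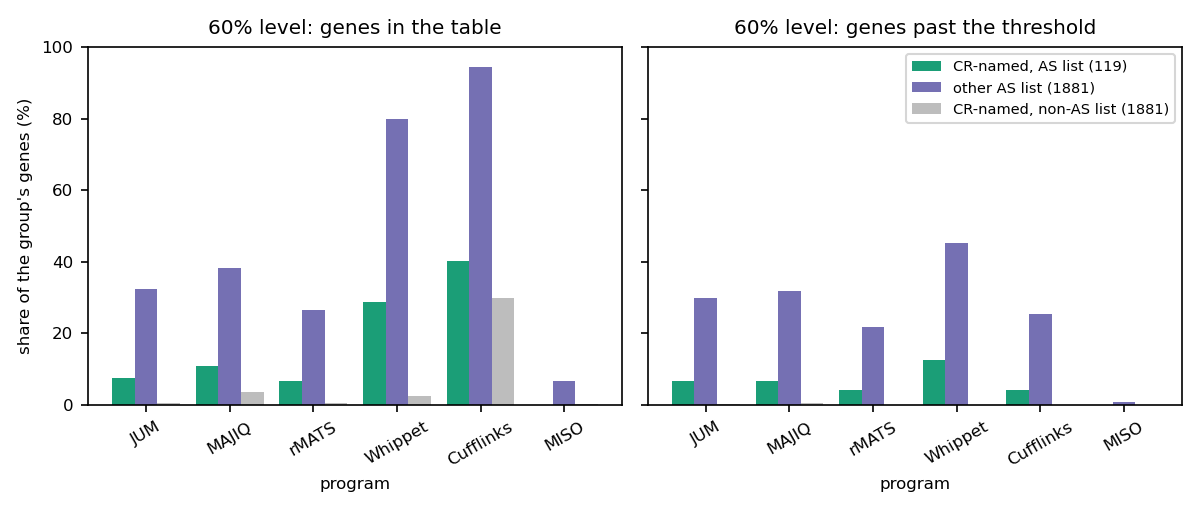
Share of genes (%) that each program lists (left) and calls (right) at the 60% level, for the 119 CR-named AS-list genes, the other 1881 AS-list genes and the 1881 CR-named non-AS-list genes. Whippet calls the most CR-named AS-list genes (15 of 34 listed), Cufflinks lists the most (48, with 5 called), and MISO lists none.

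The programs differed in how many of the 119 genes they listed and called. At the 60% level Whippet listed 28.6% of them, beside 79.9% of the other AS-list genes. The shares were 7.56% beside 32.3% for JUM and 10.9% beside 38.3% for MAJIQ. They were 6.72% beside 26.5% for rMATS and 40.3% beside 94.3% for Cufflinks. Whippet, which scores local events from transcript graphs, listed 34, 33 and 35 of them at the 60%, 40% and 20% levels in the authors' deposited tables. It called 15, 12 and 9, beside 45.2%, 42.3% and 36.7% of the other AS-list genes. JUM, which works from splice junctions without transcript annotation, listed 9, 7 and 8 and called 8, 6 and 6, beside 29.7%, 29.3% and 27.1%. Of the CR-named AS-list genes that JUM listed, 88.9%, 85.7% and 75% were called, beside 91.9%, 91.1% and 84.4% of the other listed AS-list genes. Of the CR-named non-AS-list genes that JUM listed, 2 of 11 (18.2%) were called at the 60% level.

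MAJIQ, which models local splicing variations, listed 13, 14 and 15 of the 119 genes and called 8, 6 and 4, beside 31.8%, 30.3% and 19.7% of the other AS-list genes. Of those it listed, MAJIQ called 61.5%, 42.9% and 26.7%, beside 83.1%, 78.7% and 51.8% of the other listed AS-list genes. rMATS, which counts reads over annotated event types, listed 8 at every level and called 5, 4 and 2, beside 21.8%, 20.9% and 18.7%. Of those it listed, rMATS called 62.5%, 50% and 25%, beside 82.2%, 77.8% and 70%. Cufflinks, which assembles and quantifies whole transcripts, listed the same 48 genes at every level and called 5, 6 and 1, beside 25.3%, 20.6% and 9.73%. MISO, which estimates isoform shares, listed none of the 119 genes at any level. It called 0.638%, 0.266% and 0.0532% of the other AS-list genes, so its count of 0 calls is near that background. Its listing is not, since it listed 6.75%, 6.59% and 6.8% of the other AS-list genes.

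Calls by 2 or more programs were made for 9, 9 and 6 of the 119 genes at the 60%, 40% and 20% levels. Calls by 1 program alone were made for 9, 6 and 5. At the 60% level 9 of the 119 genes (7.56%) were called by 1 program, 2 (1.68%) by 2 programs, 3 (2.52%) by 3, 1 (0.84%) by 4 and 3 (2.52%) by 5. The shares of the other AS-list genes were 11.4%, 6.27%, 8.29%, 8.51% and 13.9%. At this level the CR-named genes came nearest to them at 1 program. At the 40% level the shares for 1 to 5 programs were 5.04%, 3.36%, 1.68%, 0.84% and 1.68%. The other AS-list genes stood there at 11.2%, 5.74%, 8.24%, 8.56% and 12.3%. At the 20% level the numbers were 5 (4.2%), 3 (2.52%), 1 (0.84%) and 2 (1.68%) genes for 1 to 4 programs and 0 for 5. The other AS-list genes stood at 11.5%, 4.84%, 10.2%, 9.14% and 4.73%.

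**Figure D2:**
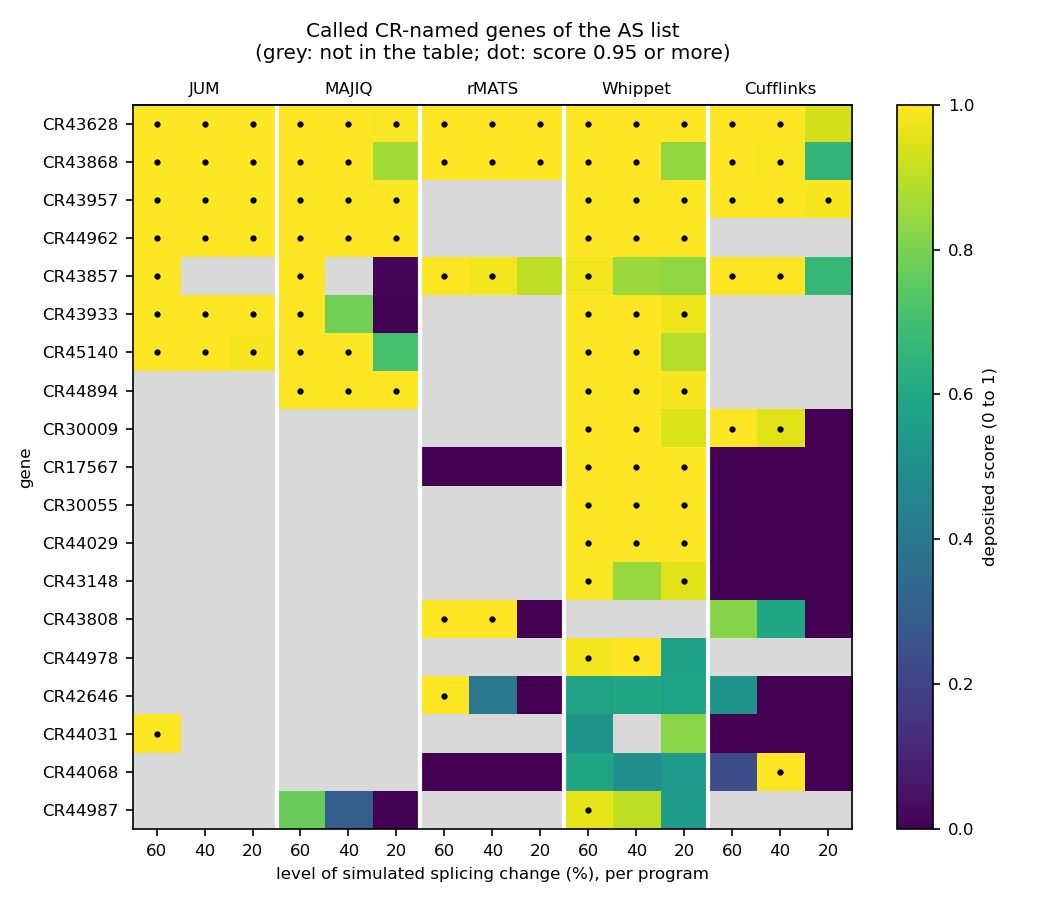
Deposited score (0 to 1, colour) of the 19 called CR-named AS-list genes in the tables of 5 programs at the 60%, 40% and 20% levels, ordered by the number of tables in which each is called. CR43628 is called in 14 tables and 4 genes at the foot in 1 each. Grey fields mark genes without a row, and MISO is left out because it lists none of them.

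CR43628, CR43868 and CR43957 stood at the top, and all 3 are antisense RNAs. CR43628 is now named ASTR and lies on 3R, 5607799 to 5609810 (plus strand), opposite Rga, whose product belongs to the CCR4-NOT complex that shortens poly(A) tails. In the authors' deposited tables CR43628 scored 1 with JUM, rMATS and Whippet at all 3 levels. Its MAJIQ score was 1, 1 and 0.993 at the 60%, 40% and 20% levels, and its Cufflinks score 1, 1 and 0.937. The gene was therefore called in 14 of the 15 tables that listed it, with Cufflinks at the 20% level the exception.

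CR43868 lies on 3L, 12498487 to 12500307 (plus strand), opposite CG10638, and has an annotated cassette exon, an exon that one transcript holds and the other skips. It scored 1 with JUM and rMATS at all 3 levels in the authors' deposited tables. Its score was 1, 1 and 0.862 with MAJIQ, 0.997, 1 and 0.838 with Whippet, and 1, 0.994 and 0.66 with Cufflinks, from the 60% to the 20% level. All 5 programs called it at the 60% and 40% levels, and JUM and rMATS alone at the 20% level.

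CR43957 lies on chromosome 4, 56497 to 63124 (plus strand), opposite ci, which encodes the transcription factor of the Hedgehog pathway. Its JUM and MAJIQ scores were 1 at all 3 levels in the authors' deposited tables. Whippet gave 1, 1 and 0.997 and Cufflinks 1, 1 and 0.989, and rMATS had no row for it. It was the one gene of the 119 called by Cufflinks at the 20% level.

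A second group of 5 genes was called in 6 to 9 tables. CR44962, an antisense RNA on X, 11790796 to 11791777 (minus strand), lies opposite Karl, which encodes a lipocalin. In the authors' deposited tables it scored 1 with JUM, MAJIQ and Whippet at all 3 levels and had no row from the other programs. CR44894, an antisense RNA on X that spans 94235 bases, scored 1 with MAJIQ at all 3 levels and 1, 1 and 0.992 with Whippet. These 2 genes kept every call down to the 20% level, as far as the programs listed them.

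CR45140 (asRNA, 2R, 12867609 to 12869783, plus strand) scored 1, 1 and 0.992 with JUM, 1, 1 and 0.708 with MAJIQ, and 1, 0.999 and 0.889 with Whippet in the authors' deposited tables. CR43933 (asRNA, 3L, 21496393 to 21498830, plus strand) scored 1 at all 3 levels with JUM, 1, 0.998 and 0.973 with Whippet, and 1, 0.786 and 0.00486 with MAJIQ. For both genes JUM stayed above the threshold at the 20% level where MAJIQ did not.

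CR43857, which overlaps the microRNA gene mir-275 on the same strand, lies on 2L, 7423820 to 7425932 (plus strand). All 5 programs that listed it called it at the 60% level, with JUM, MAJIQ, rMATS and Cufflinks at 1 and Whippet at 0.984 in the authors' deposited tables. At the 40% level JUM and MAJIQ held no row for it, rMATS gave 0.982, Cufflinks 1 and Whippet 0.85. At the 20% level the scores were 0.0144 with MAJIQ, 0.903 with rMATS, 0.835 with Whippet and 0.666 with Cufflinks. The number of programs calling this gene was 5, 2 and 0 from the 60% to the 20% level.

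The other 11 called genes rested on 1 program each, except CR30009. CR30009 (lncRNA, 2R) scored 1, 1 and 0.943 with Whippet and 1, 0.957 and 0 with Cufflinks in the authors' deposited tables. CR17567, CR30055 and CR44029 scored 1 with Whippet at all 3 levels and 0 with Cufflinks at all 3. For CR17567 rMATS also gave 0 at all 3 levels, so the programs that listed this gene were split between the ends of the scale.

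Whippet alone also called CR43148 (0.994, 0.847 and 0.953), CR44978 (0.981, 1 and 0.572) and CR44987 (0.964, 0.906 and 0.552), in the order 60%, 40% and 20% level of the authors' deposited tables. rMATS alone called CR43808 (1, 1 and 0) and CR42646 (0.999, 0.402 and 0). JUM alone called CR44031, with a score of 1 at the 60% level and no row at the others, while Whippet gave it 0.516 and 0.824 for the 60% and 20% levels and Cufflinks 0 at all 3. Cufflinks alone called CR44068, with 0.237, 0.998 and 0. Its call at the 40% level alone, and the Whippet call of CR43148 at the 60% and 20% levels but not the 40% level, do not follow the order of the levels.

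Genes that were listed and never called mostly had scores far from the threshold. Of the 35 such genes in the authors' deposited Cufflinks tables, 34 scored exactly 0 in the 60% table, 34 in the 40% table and 35 in the 20% table. The exceptions, named after their values were seen, were CR44168 (0.534 at the 60% level) and CR43475 (0.8 at the 40% level). A Cufflinks score of 0 is not particular to CR-named genes. At the 60% level it was given to 1160 of the 1298 other AS-list genes that Cufflinks listed and did not call. Among the other non-AS-list genes it was given to 11761 of 11950. Whippet scores of never-called genes had a median of 0.532 at the 60% level over 16 genes, 0.55 at the 40% level over 16 and 0.543 at the 20% level over 17, with a floor just above 0.5. CR43480, an antisense RNA on X, came closest, with Whippet scores of 0.928, 0.832 and 0.705.

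Outside Whippet and Cufflinks 7 never-called genes had a row. CR44124 (asRNA, X) had JUM scores of 0.259, 0.0171 and 0.29, MAJIQ scores of 0.00358, 0.00634 and 0.0212 and rMATS scores of 0 in the authors' deposited tables. CR44999 (lncRNA, X) had a JUM row at the 20% level alone, with 0.435, and Whippet scores of 0.529, 0.518 and 0.529. CR45197, which overlaps the kinase gene sgg on the same strand, had MAJIQ scores of 0.0146, 0.00598 and 0.0124. CR43480, CR43683, CR43964, CR44999 and CR45007 had MAJIQ scores of at most 1.65e-05 wherever MAJIQ listed them.

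The 56 genes with a row in no table run from CR41257 to CR45738 and include CR44284, CR44316, CR44351, CR44368, CR44429, CR44444, CR44468, CR44471, CR44507, CR44600, CR44619, CR44620, CR44662, CR44727, CR44744, CR44775, CR44793, CR44814, CR44841, CR44843, CR44899, CR44971, CR44972, CR44991, CR45004, CR45047, CR45102, CR45131, CR45132, CR45133, CR45156, CR45170, CR45174, CR45200, CR45221, CR45223, CR45275, CR45326, CR45341, CR45380, CR45471, CR45480, CR45520, CR45522, CR45528, CR45531, CR45568, CR45577, CR45612, CR45625, CR45677, CR45681, CR45683 and CR45686. A gene absent from a table has no score there, which is not a score of 0, and the labels do not say why a program left it out. Of these 56 genes, 50 have 1 annotated transcript and 30 have no intron in BDGP6.54.

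All called genes had more than 1 annotated transcript, a property that the rule did not use. It is not particular to CR-named genes. Among the other AS-list genes 897 with 2 or more transcripts and 7 with 1 were called at the 60% level. The 118 matched genes have a median of 1 transcript, 1 intron and 991 bases of exon, where the other AS-list genes have 2 transcripts, 3 introns and 2073 bases and the CR-named non-AS-list genes 1 transcript, 0 introns and 637 bases. One transcript is annotated for 88 of the 118 (74.6%), for 40% of the other AS-list genes and for 86.6% of the CR-named non-AS-list genes. No intron is annotated for 46 of the 118 (39%) and for 8.07% of the other AS-list genes. The labels do not say what transcripts the simulation gave these genes. The comparison by transcript number was chosen after values were seen.

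None of the 88 CR-named genes with 1 transcript was called at any level, beside 0.941%, 0.403% and 0.269% of 744 other AS-list genes with 1 transcript at the 60%, 40% and 20% levels. Rows from 1 or more programs other than Cufflinks existed for 14.8%, 15.9% and 18.2% of the 88, beside 58.3%, 58.9% and 58.9% of the 744. All 19 called genes have 2 or more transcripts. Of the 30 CR-named genes with 2 or more, 60%, 50% and 36.7% were called at the 60%, 40% and 20% levels. The shares of the other AS-list genes with 2 or more transcripts were 80.4%, 76.3% and 67%. The CR-named genes of this class thus also stood below the other AS-list genes at each level. The CR-named genes with 2 or more transcripts were listed less often as well. Rows from 1 or more programs other than Cufflinks existed for 76.7%, 73.3% and 76.7% of them, beside 95.3%, 96.1% and 95.8%. The part of listing in this gap was not tested.

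**Figure D3:**
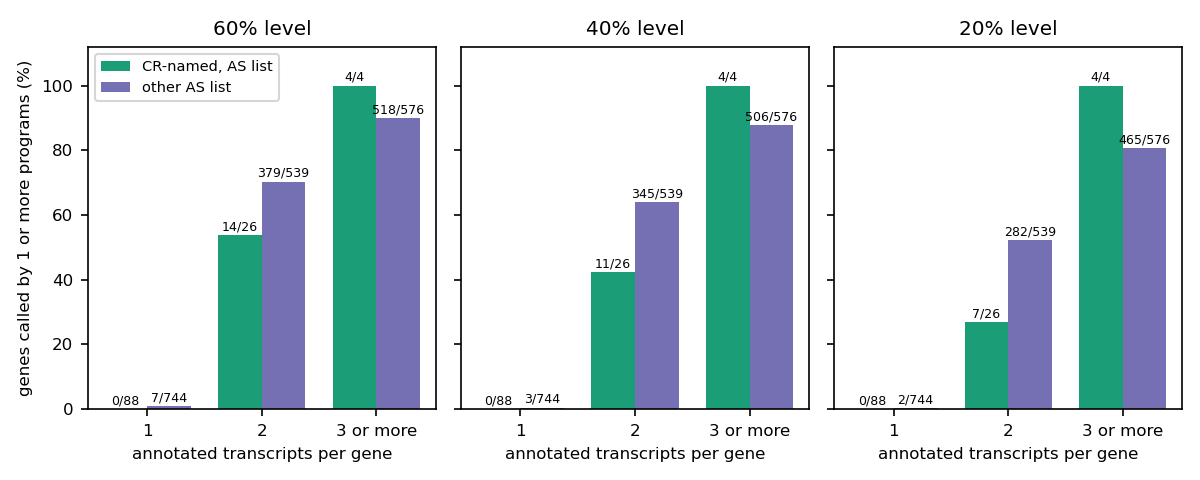
Share of genes (%) called by 1 or more programs at the 60%, 40% and 20% levels, by number of annotated transcripts, for CR-named and other AS-list genes, with called and total genes above each bar. No CR-named gene with 1 transcript is called, 14, 11 and 7 of 26 with 2 transcripts are, and the 4 genes with 3 are called at every level.

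The 4 genes with 3 transcripts are CR43628, CR45140, CR17567 and CR30055, and each was called at all 3 levels. Of the 26 with 2 transcripts, 14, 11 and 7 were called at the 60%, 40% and 20% levels, beside 70.3%, 64% and 52.3% of 539 other AS-list genes with 2. The 11 genes with 2 transcripts that were never called are CR43480, CR44106, CR44368, CR44468, CR44619, CR44744, CR45133, CR45182, CR45197, CR45223 and CR45424. Of these, CR44368, CR44468, CR44619, CR44744, CR45133 and CR45223 had a row in no table.

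Among the 19 called genes 14 have 2 or more intron chains, that is, spliced transcripts that differ in their set of introns. CR44987 is not among them, since it has 1 spliced and 1 unspliced transcript. By kind, 10 have introns that share an acceptor and differ in the donor, 7 have introns that share a donor and differ in the acceptor, 2 have a cassette exon (CR43868 and CR44978) and 1 has a retained intron (CR44987). A gene may be in more than 1 kind, and the donor and acceptor kinds include different first or last exons and cassette exons. The competing sites of CR43628 lie 29 bases apart for the donors, with introns of 101 and 72 bases, and 5 bases apart for the acceptors. Competing donors of the same exon lie 105 bases apart in CR44962, 299 in CR45140 and 372 in CR43857. In CR43933 the donors, 573 bases apart, belong to different first exons. In CR43957 and CR44894 the transcripts end in different last exons, and the competing acceptors of CR43957 are 2403 bases apart.

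Distances between competing sites ranged widely among genes called by 1 program. The donors of CR17567 are 4 bases apart and its acceptors 9, the acceptors of CR44068 are 7 apart, and the donors of CR43808 are 25 apart. The acceptors of CR42646 are 61 apart and the donors of CR44031 446. In CR44978, which has a cassette exon, the donors are 1361 apart and the acceptors 1844. CR43148 and CR44029 have no annotated intron at all. CR30009 and CR30055 have 1 intron chain that all their transcripts share, so the transcripts of these genes do not differ in their introns. Those 4 genes had calls from Whippet, and from Cufflinks for CR30009, and no row from JUM, MAJIQ or rMATS.

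**Figure D4:**
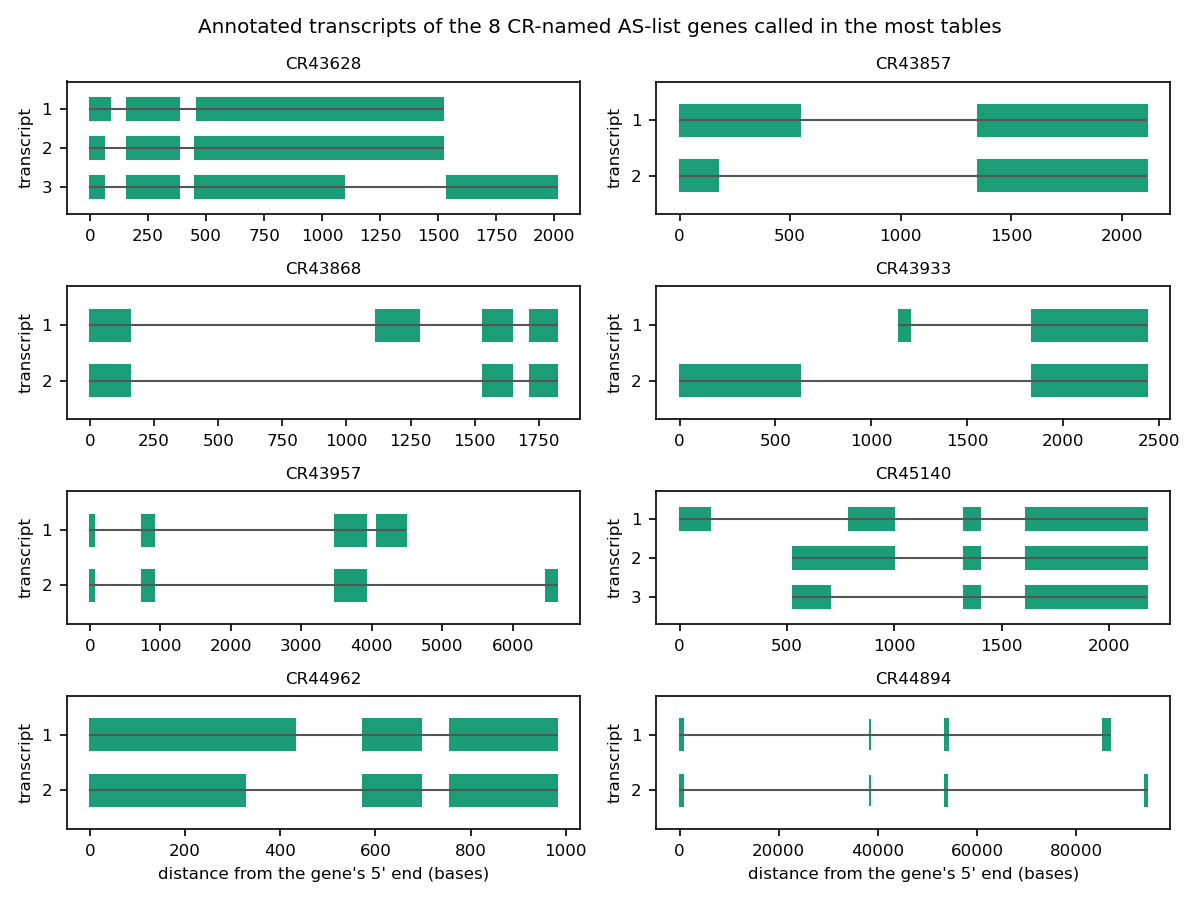
Annotated transcripts (BDGP6.54) of the 8 CR-named AS-list genes called in the most tables, with exons as boxes and introns as lines, drawn 5′ to 3′ by distance in bases from the gene's 5′ end, each panel on its own scale. CR43868 shows the skipped exon, CR43857 and CR44962 introns with different donors, and CR43957 and CR44894 different last exons.

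Genes with low and high CR numbers differed in whether they were listed, a split chosen after the values were seen. The highest CR number in the authors' deposited Cufflinks tables was CR44238, and the highest in the rMATS tables CR44124, while those of JUM, MAJIQ and Whippet reached CR45660, CR45621 and CR45668. Of the 50 CR-named AS-list genes up to CR44238, Cufflinks listed 48, and 1 (CR41257) had a row in no table. Of the 69 above it, Cufflinks and rMATS listed 0 and 55 had a row in no table. The same edge is seen among the CR-named non-AS-list genes, where Cufflinks listed 560 of 621 up to that number and 0 of 1260 above it.

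Calls were also more frequent up to that number. Of the 50 genes up to CR44238, 14 (28%) were called, and of the 69 above it 5 (7.25%): CR44894, CR44962, CR44978, CR44987 and CR45140. Among genes with 2 or more annotated transcripts, 14 of 16 were called up to that number and 5 of 14 above it. JUM listed 7 of the 50 and 3 of the 69, MAJIQ 9 and 7, and Whippet 23 and 12. Which annotation each program was given was not tested.

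Most of these genes share their span with a protein-coding gene. Of the 118 matched genes 84 (71.2%) overlap one, 81 of them on the opposite strand, and 12 of the 19 called genes (63.2%) and 72.7% of the others do. Of the CR-named non-AS-list genes 36.2% overlap a protein-coding gene, 29.8% on the opposite strand. The overlap was with another AS-list gene in 9 of the 118 (7.63%) and in 2 of the 19 called genes, CR43933 with the nuclear receptor gene Hr78 and CR44978 with the receptor phosphatase gene Lar. Both partners were called in 12 tables. Exons of CR43933 overlap exons of Hr78, but no exon of CR44978 overlaps an exon of Lar. Exons overlap those of a protein-coding gene in 52.6% of the called genes and 59.6% of the others. The other 17 called genes overlap no AS-list gene.

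Genes of the non-AS list without a CR name that overlap a called CR-named AS-list gene were often called themselves, a comparison also chosen after the values were seen. There were 16 such genes, and 7, 4 and 2 of them (43.8%, 25% and 12.5%) were called by 1 or more programs at the 60%, 40% and 20% levels. Of the 97 without a CR name that overlap CR-named AS-list genes without a call, 5, 3 and 3 (5.15%, 3.09% and 3.09%) were. Among the 12601 other non-AS-list genes without a CR name the shares were 1.85%, 1.63% and 1.22%. The 16 genes were reached through called genes, so no test was made, and the part of shared reads was not tested.

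Rga, opposite CR43628, scored 1, 1 and 0.999 with MAJIQ in the authors' deposited tables and 0 with Cufflinks at all 3 levels. CG10638, opposite CR43868, scored 1, 1 and 0.868 with MAJIQ, where CR43868 had 1, 1 and 0.862, and at most 0.0883 with JUM, where CR43868 had 1. Its Whippet scores were 0.925, 0.796 and 0.938. CG17574, opposite CR45140, scored 1, 1 and 0.768 with MAJIQ, where CR45140 had 1, 1 and 0.708, and 1, 1 and 0.901 with Cufflinks, where CR45140 had no row. In these 3 pairs MAJIQ scored both genes high at the 60% and 40% levels, while JUM had a low score or no row for the partner of the CR-named gene.

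Karl, opposite CR44962, scored 1, 0.406 and 2.08e-18 with MAJIQ, where CR44962 stayed at 1, and 1, 0 and 0.999 with Cufflinks, in the authors' deposited tables. Glg1, opposite CR43933, scored 1, 1 and 0.365 with Cufflinks and at most 0.577 in the other programs. Galectin and CR44987 both had a Whippet score of 0.964 at the 60% level, and 0.819 and 0.882 against 0.906 and 0.552 at the others. The remaining called neighbour was Ypel (CG15309 in the tables), which overlaps CR44894 on the same strand and scored 0.99 with Cufflinks at the 60% level.

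**Figure D5:**
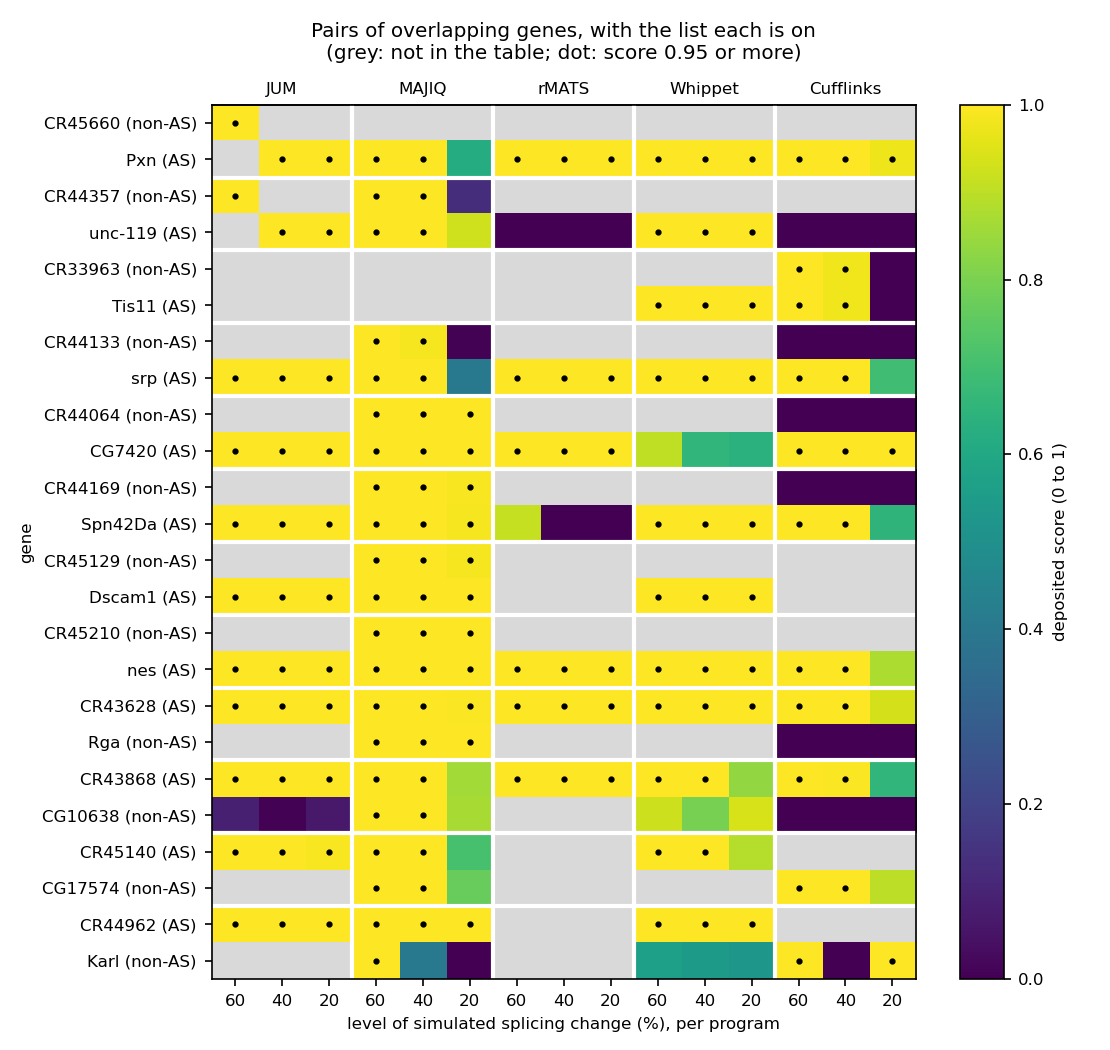
Deposited scores (0 to 1, colour) of 12 pairs of overlapping genes with the list each is on, in the tables of 5 programs at the 60%, 40% and 20% levels; pairs were chosen after values were seen. In the upper 8 pairs the CR-named gene is on the non-AS list and its partner on the AS list, in the lower 4 the reverse, and MAJIQ scores are high in both genes of most pairs.

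The CR-named genes of the non-AS list show the reverse arrangement. They overlap an AS-list gene in 119 of 1857 matched cases (6.41%), but 9 of the 13 matched ones that were called do (69.2%). CR45129 lies opposite Dscam1, the cell adhesion gene with many alternative exons, and scored 1, 1 and 0.985 with MAJIQ in the authors' deposited tables, where Dscam1 scored 1 at all 3 levels. CR44064 (opposite CG7420) and CR45210 (opposite nes) scored 1 with MAJIQ at all 3 levels, as their partners did, and CR44169 scored 1, 1 and 0.989 where its partner Spn42Da had 1, 1 and 0.987. CR45194, which had no match in the annotation, scored 1, 1 and 0.999 with MAJIQ.

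In 2 such pairs the JUM rows of the 2 genes never stood in the same table. CR45660 overlaps Pxn, the hemocyte gene for peroxidasin, on the same strand, and had a JUM score of 1 at the 60% level and no row at the others. Pxn had no JUM row at the 60% level and a score of 1 at the 40% and 20% levels. CR44357 and unc-119 show the same pattern of rows. CR44357 spans 239347 bases, and none of its exons overlaps an exon of an AS-list gene, where those of CR45660 do. MAJIQ gave CR44357 1, 1 and 0.132 in the authors' deposited tables. There CBP, which CR44357 overlaps on the other strand, had 1, 1 and 0.125. CR33963 overlaps Tis11, a gene for an mRNA decay factor, and both had Cufflinks scores of 1, 0.978 and 0.

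CR44133 overlaps srp, the GATA factor gene of hemocyte development, and scored 1, 0.986 and 0.00673 with MAJIQ in the authors' deposited tables, where srp had 1, 1 and 0.406. CR42862, called by MAJIQ with 1 at the 40% and 20% levels and 2.28e-17 at the 60% level, overlaps CG33229, which was called in no table. CR42839, which overlaps no other gene, had Whippet scores of 1, 0.775 and 0.919.

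None of the 119 CR-named AS-list genes had a JUM row in turn with an overlapping gene. Scores other than 0 and 1 that both genes of an overlapping pair had in the same deposited table were also compared for equality in every deposited digit. For the CR-named AS-list genes this held for 1 of 29 Whippet pairs (CR44987 and galectin), 0 of 34 MAJIQ pairs and 0 of 5 JUM pairs, and there was no pair to compare for MISO or Cufflinks. For the CR-named non-AS-list genes it held for 0 of 41 Whippet pairs, 3 of 100 MAJIQ pairs, 0 of 3 JUM pairs, 2 of 3 Cufflinks pairs and 5 of 6 MISO pairs. The 3 equal MAJIQ pairs are 1 pair of genes at the 3 levels, CR43875 and alphaSnap, with values close to 0 (2.42e-18, 1.47e-18 and 6.96e-19). CG33229, the partner of CR42862, had the same MAJIQ values to 3 digits, so this equality is not particular to the pair.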

How the data were processed

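Cufflinks, STAR 2.5.4b and the build dm3 appear in the submitters' processing notes with no role or order. How the reads were simulated, their strand and the settings of the programs were not stated. Each deposited score was used as the authors gave it. The values let the scores of JUM, rMATS and Cufflinks be read as 1 minus p or q, those of MAJIQ and Whippet as a probability, and those of MISO as a Bayes factor. The class column matched the lists in all 18 tables.

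A gene was called at a score of 0.95 or a Bayes factor of 10. The call rule was tested on simulated scores. Printed scores are rounded to 3 significant digits, so 1 can stand for a value just below it. Symbols were matched to BDGP6.54 (Ensembl release 115) as given (1), after the class prefix (114) or as a unique older symbol (3). Overlap means overlap of gene spans. Genes named with values are all called genes, those with a row from JUM, MAJIQ, rMATS or MISO or in no table, and up to 10 CR-named non-AS-list genes called in the most tables. Members and lists were chosen with earlier results of these data known. CR45660, CR43475, CR44168, CR43875 and the pairs of overlapping genes were named after their values were seen. Computations used Python 3.11.15, numpy 2.4.6, pandas 2.3.3 and matplotlib 3.10.9.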

Additional observations from a re-analysis of the deposited data

How the results depend on the processing

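Of 51 alternative settings 39 left a count within 1.5 times its value. Settings with other Bayes factors could not move a count, since MISO lists none of these genes. A looser symbol rule (CR and a digit at the start) gave identical counts. Both kinds are among the 39 and do not bear on how stable the counts are. Requiring 2 or more programs gave 9, 9 and 6 called CR-named AS-list genes at the 60%, 40% and 20% levels. Leaving out Whippet gave 12, 11 and 7 called genes, where the main counts were 18, 15 and 11. A score threshold of 0.90 gave 19, 16 and 13. A threshold passed by no more than 5% of the non-AS list per table gave 23, 22 and 18. That threshold was low in some tables, such as 0.00148 for MAJIQ and 5.9e-05 for Cufflinks at the 60% level. The 5% holds per table, not for a call by any of the 6 programs. Shares of the other AS-list genes were not counted under these settings, so the counts show only how far the number of called genes moves. The number listed was 61, 62 and 63 with Cufflinks included and 18, 19 and 19 without Whippet. A score of 0.99 left 4 called CR-named non-AS-list genes at the 20% level. The cause was not tested beyond the programs left out or added. No paired analysis was possible because each table pools its libraries, and for the same reason no library could be left out and the precision that depth gives is unknown.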

Other observations

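By annotation class, 10 of the 57 antisense RNAs among the CR-named AS-list genes (17.5%) and 8 of the 59 other long noncoding RNAs (13.6%) were called in 1 or more tables. Among the CR-named non-AS-list genes the shares were 1.35% of 297 antisense RNAs and 0.587% of 1533 long noncoding RNAs. No test was made of these differences.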
